A study of Rattus norvegicus with 48 samples.

Results

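The miR-23/27/24 clusters were followed in the livers of 48 male Sprague-Dawley rats, through every mature miRNA whose name marks it as a strand of miR-23a, miR-23b, miR-27a, miR-27b or miR-24. This rule used names only and gave 11 of the 764 mature miRNAs listed, of which 664 had a read in at least 1 library. The 11 are the 5 guide strands, which end in 3p and are loaded for silencing, and 6 passenger strands, which end in 5p. Rats received the hepatotoxicant thioacetamide (TAA) once daily at 4.5 mg/kg (low dose), 15 mg/kg (middle dose) or 45 mg/kg (high dose), or vehicle alone, for 3, 7, 14 or 28 days. Each of these 16 groups held 3 rats, and the 4 vehicle groups are the time-matched controls. All rats were of 1 sex and strain, the age is not given in the sources used here, and liver was taken a day after the last dose. Small RNA was prepared from pieces of whole liver, so each value is a mean over hepatocytes, endothelium, stellate cells, blood and bile duct. In such samples, fewer cells of a type and less miRNA per cell cannot be told apart.

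A miRNA cluster is a set of hairpins cut from a single primary transcript, and its strands are then loaded separately into silencing complexes that recognise mRNAs mainly through the seed, bases 2 to 8. Vertebrates carry both an a cluster (miR-23a, miR-27a and miR-24-2) and a b cluster (miR-23b, miR-27b and miR-24-1). The clusters are best known from endothelium, where they act on vessel growth. In the liver, miR-27 is known to repress genes of lipid handling, miR-23b cluster members to repress Smads of TGF-beta signalling, and miR-24 to repress cell cycle genes.

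The guide strands of the RefSeq annotation (GRCr8) are shown because the a and b copies differ by so little that read assignment matters for every value that follows. Capitals mark the seed and sequences run 5′ to 3′.
rno-miR-23a-3p: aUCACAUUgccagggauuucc
rno-miR-23b-3p: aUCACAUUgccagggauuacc
rno-miR-27a-3p: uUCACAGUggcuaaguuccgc
rno-miR-27b-3p: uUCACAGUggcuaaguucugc
rno-miR-24-3p: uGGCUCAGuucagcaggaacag
Counted from 1 at the 5′ end, miR-23a-3p and miR-23b-3p differed by the single base U19A, and miR-27a-3p and miR-27b-3p by C19U. The a and b copies thus share their seed. The seed of miR-23 and that of miR-27 differ at position 7 alone, and no other of the 693 mature entries of the table shares any of the 3 seeds. A read that ends before position 19 cannot tell an a copy from a b copy, and the authors kept reads from 18 bases, so the division of reads between a and b is uncertain. The product miR-24-3p is identical from both clusters and cannot be divided at all. Its 2 precursor rows were equal in 38 of the 48 libraries and differed by at most 3 reads in the others.

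The hairpins Mir23a, Mir27a and Mir24-2 lie on chromosome 19 and Mir23b, Mir27b and Mir24-1 on chromosome 17, all on the minus strand. The nearest protein-coding genes to the a cluster are Zswim4 and Nanos3, whereas the b cluster lies inside Aopep, which encodes an aminopeptidase. The passenger strands of miR-24 tell the clusters apart, because miR-24-1-5p and miR-24-2-5p share their first bases and their seed but differ at 5 positions, the first of them position 17.
rno-miR-24-1-5p: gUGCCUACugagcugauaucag
rno-miR-24-2-5p: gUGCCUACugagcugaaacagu
Sequences were found for 10 of the 11 members. No entry matched miR-23a-5p.

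Total counts per library lay between 293331 and 14906217, with a median of 10237542. The smallest library, control 3-d replicate 1, stood apart, since the next had 4829217 counts. In it the guide strands were at 34.9% (miR-27a-3p) to 68.6% (miR-23b-3p) of the mean of the other 2 controls of that time point, and 3 passenger strands that the others contained had no read. The summed level of 4 red blood cell miRNAs was 81096 normalized RPM there against a median of 4956 over the 12 controls. Results over the 3-d controls were therefore also computed without this library, and the main ones are given both ways. Each library is a separate rat, so p-values measure the spread between rats.

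Levels are given as upper quartile normalized RPM, where RPM scales each count to the library's total and the upper quartile of the counts gives a further scaling factor. Strand medians over the 48 libraries in the text, the 5 RPM filter and the RPM of 3 reads are before that factor. The guide strand miR-27b-3p dominated, at a median of 24269 RPM and rank 11 among all mature miRNAs, or 2.43% of a library's reads. It accounted for 87.6% of the pooled reads of the 5 guide strands. The others followed with medians of 1287 RPM for miR-23b-3p, 934 for miR-27a-3p, 741 for miR-24-3p and 408 for miR-23a-3p, before scaling. All 5 are 21 or 22 bases long, and libraries of small RNA do not recover every sequence equally. Within libraries, miR-27b-3p exceeded miR-23b-3p in 48 of 48, and the groups of rats did not overlap in 16 of 16. The strand miR-23b-3p exceeded miR-27a-3p in 47 libraries and miR-24-3p exceeded miR-23a-3p in 47, without overlap in 13 of 16 groups each. The neighbours miR-27a-3p and miR-24-3p were less distinct, with miR-27a-3p higher in 36 libraries and no overlap in 7 of 16 groups.

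Passenger strands were scarce apart from miR-24-2-5p. The 5p strand made up 0.0194% of miR-23a reads, 0.0318% of miR-23b reads, 0.0931% of miR-27b reads and 0.270% of miR-27a reads. For miR-24 both 5p strands together made up 13.6% of the reads, and 96.4% of those were miR-24-2-5p, the one from the a cluster. Its median was 109 RPM, against 4.03 RPM for miR-24-1-5p, 22.1 for miR-27b-5p and 2.55 for miR-27a-5p. For the guide strands of miR-23 and miR-27, in contrast, the b copy was the more abundant. The strands miR-23a-5p, with 39 reads in all libraries together, and miR-23b-5p, with 202, did not reach 5 RPM in 3 libraries. They were not tested, which left 9 members among the 301 tested miRNAs. Of these, miR-27a-5p reached 5 RPM in no more than 3 libraries. In 1 of them, control 3-d replicate 1, this was 3 reads (10.2 RPM), and without that library it would not have been tested.

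**Figure D1:**
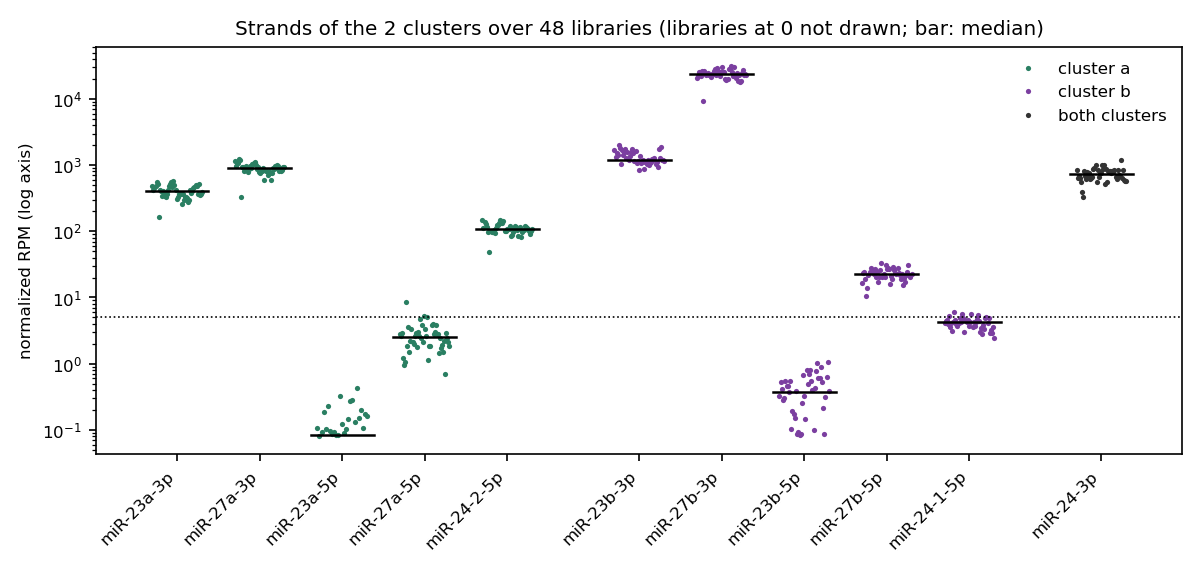
Normalized RPM of each strand on a log axis, one point per library with a read (48 libraries), coloured by cluster, with the median as a bar and a dotted line at 5 RPM. The 3p strands of miR-23 and miR-27 lie far above their 5p partners, while miR-24-2-5p lies between miR-24-1-5p and miR-24-3p in the plot.

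In untreated liver the guide strands showed no change with time that passed the test. Over the 12 controls, an F-test over the 4 time points in edgeR gave adjusted p-values between 0.411 (miR-23a-3p) and 0.904 (miR-27b-3p) for the guide strands, where 1.99% of all tested miRNAs were called. Without control 3-d replicate 1 these adjusted p-values lay between 0.101 (miR-23a-3p) and 0.755 (miR-23b-3p). With all 12 controls, the control means of miR-27b-3p lay within 0.27 log2 units of each other. The strand with the smallest p-value was miR-27a-5p, with 1.07 ± 0.147 RPM (SD, n = 3) in the 28-d controls and 2.78 ± 0.143 in the 14-d controls, and an adjusted p of 0.183 in edgeR.

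To ask whether TAA moved the clusters, each treatment condition was set against its time-matched controls. A differentially expressed miRNA (DEM) is one that changed by more than 1.5-fold with p under 0.05 before adjustment. The 9 members gave 7 DEMs in 108 tests (6.48%), 2 higher and 5 lower, while over all tested miRNAs 18.1% of tests gave a DEM, 12.1% higher and 5.98% lower. The share of members called was thus below that of all miRNAs. The balance of directions depended on scaling, since library size gave 5 higher and 2 lower DEMs. Among the 60 tests of guide strands, 4 DEMs were lower and 1 was higher, 18 had an unadjusted p-value below 0.05 (28.8% over all tests), and 5 had an adjusted p below 0.05 (15.3%). Treated and control rats did not overlap in 26 of these 60 tests (43.3%), beside 35.5% over all miRNAs. By condition, 7.97% (middle dose at 3-d) to 53.2% (low dose at 7-d) of all tested miRNAs did not overlap. Doses at the same time point were compared with the same control rats, so these tests are not independent. Log2 fold changes are given with their standard error (SE).

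**Figure D2:**
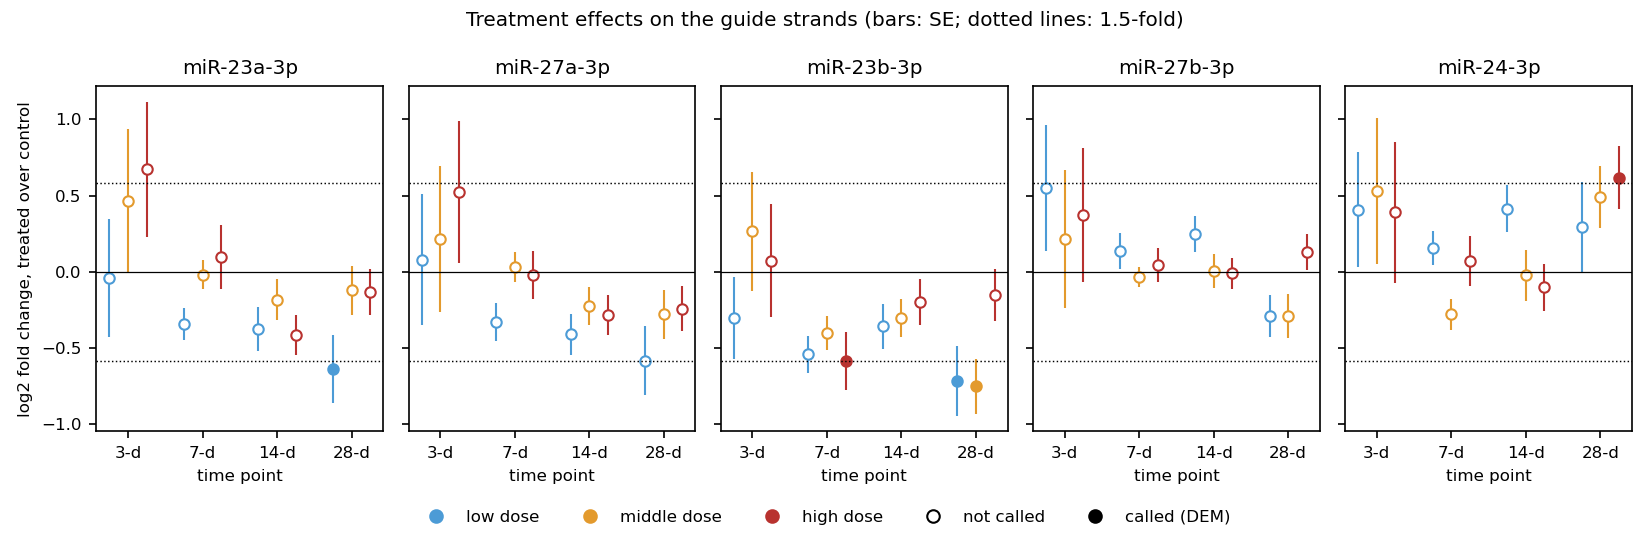
Log2 fold change of treated over time-matched control rats for the 5 guide strands, by time point and dose, with standard errors (3 rats against 3). Filled points are DEMs, and dotted lines mark 1.5-fold. Most points of miR-23b-3p lie below 0, and no point of miR-27b-3p is filled.

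Among the guide strands, the clearest change was in miR-23b-3p, which repeatedly fell. The median size of its changes, 0.33, was larger than that of 45.5% of tested miRNAs, whose median was 0.35. Its fitted log2 fold change was below 0 in 10 of 12 conditions, with a median of -0.33, and it was a DEM in 3 of them. The median over all tested miRNAs was below 0 only at middle dose 7-d, high dose 14-d and low dose 28-d. The share of all tested miRNAs below 0 in as many conditions was not computed. At 28-d, the controls had 1419, 1797 and 1997 RPM. The middle dose rats had 920, 1050 and 1127 RPM at that time. All treated rats were below all controls (48.5% of miRNAs did not overlap), and the log2 fold change was -0.75 (SE 0.18 and adjusted p = 0.0104 by edgeR), in a comparison in which 32.9% of tested miRNAs were DEMs and 35.5% had an adjusted p below 0.05. The low dose rats had 877, 1113 and 1187 RPM, again without overlap (23.3% of miRNAs), and a log2 fold change of -0.71 (SE 0.23 and adjusted p = 0.249 by edgeR), where 8.64% of miRNAs were lower DEMs. Without control 28-d replicate 17 the low dose call was lost, at -0.60. With high dose, the 28-d rats had 1375, 1566 and 1751 RPM, within the range of the controls, and the log2 fold change was -0.15 (SE 0.17 and adjusted p = 0.612 by edgeR).

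At 7-d miR-23b-3p was below its controls at all 3 doses. The controls had 1291, 1573 and 1751 RPM. Low dose rats had 1002, 1068 and 1101 RPM, middle dose rats 1138, 1174 and 1178, and high dose rats 840.5, 1086 and 1145. No treated rat reached the lowest control, where 53.2%, 46.2% and 35.2% of miRNAs did not overlap at low, middle and high dose. The log2 fold changes were -0.54 at low dose (SE 0.12 and adjusted p = 0.00819 by edgeR) and -0.40 at middle dose (SE 0.11 and adjusted p = 0.0262 by edgeR), both short of 1.5-fold, where 42.5% and 27.6% of miRNAs had an adjusted p below 0.05. That at high dose was -0.59 (SE 0.19 and adjusted p = 0.0924 by edgeR), which passed the fold threshold only just (3.32% of miRNAs were lower DEMs there) and was lost without control replicate 4 or 5 or without high dose replicate 27 (-0.57, -0.48 and -0.46). At 14-d the 3 log2 fold changes lay between -0.36 and -0.20. At 3-d they lay between -0.30 and 0.26, and without control 3-d replicate 1 the low dose value became -0.46 (adjusted p = 0.0375 by edgeR).

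A single fit of all 48 libraries gave the mean effect over the 12 conditions. For miR-23b-3p it was -0.33 (SE 0.071 and adjusted p = 0.000388 by edgeR), or 1.26-fold lower, where 15.9% of tested miRNAs were called lower and 25.2% higher. The median effect over all tested miRNAs was 0.062. By dose the mean effect of miR-23b-3p was -0.48 at low dose (adjusted p = 3.7e-05 by edgeR), -0.30 at middle dose (adjusted p = 0.00808 by edgeR) and -0.22 at high dose (adjusted p = 0.0593 by edgeR, not past the threshold). This division by dose depended on scaling, since the middle dose lost its call with library size (-0.17, adjusted p = 0.135 by edgeR) and the high dose gained one with TMM normalization (-0.29, adjusted p = 0.00633 by edgeR) and DESeq2 size factors (-0.32). The shares of tested miRNAs called lower were 21.3%, 13.3% and 6.64% in that order. By time it was called at 7-d (-0.51, adjusted p = 0.0125 by edgeR) and at 28-d (-0.54, adjusted p = 0.0125 by edgeR), though each lost its call without 1 of 2 control rats (replicates 4 and 5 at 7-d, replicates 17 and 18 at 28-d, with values of -0.51 to -0.41). At these times 2.99% and 4.32% of tested miRNAs were called lower. Without control 3-d replicate 1, the mean over all conditions was -0.37 (adjusted p = 4.5e-05 by edgeR).

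**Figure D3:**
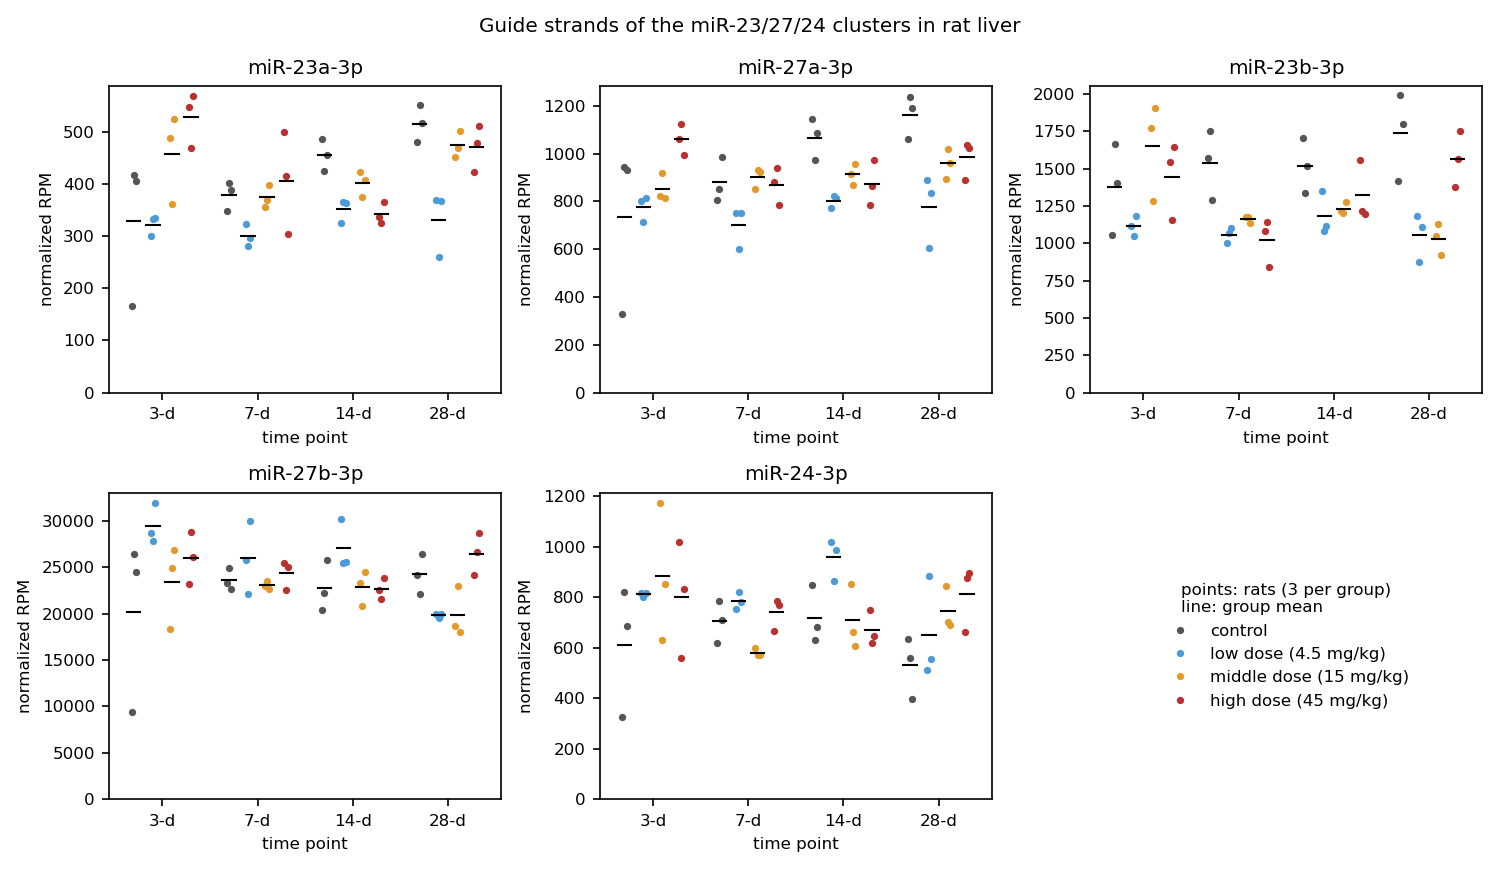
Normalized RPM of the 5 guide strands in every rat, by time point and dose (3 rats a group, line at the group mean). Control 3-d replicate 1 is the lowest control point of each strand, and miR-23b-3p of treated rats lies below the controls at 7-d.

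The a cluster strands miR-23a-3p and miR-27a-3p fell at low dose from 7-d on, but not at 3-d (log2 fold changes of -0.04 and 0.08). Low dose rats had 281, 296 and 322 RPM of miR-23a-3p at 7-d, below the controls at 347, 389 and 402. The log2 fold change was -0.34 (SE 0.11 and adjusted p = 0.0301 by edgeR). At 28-d, low dose rats had 259, 367 and 368 RPM against 479, 517 and 550 in the controls. That was the only DEM of miR-23a-3p, with -0.64 (SE 0.22 and adjusted p = 0.249 by edgeR), and it was lost without control replicate 17 or low dose replicate 29 (-0.59 and -0.49) and with TMM normalization (-0.52), DESeq2 size factors (-0.51) or library size (-0.42). For miR-27a-3p, the low dose rats had 771, 814 and 821 RPM at 14-d against 972, 1084 and 1143 in the controls, a log2 fold change of -0.41 (SE 0.13 and adjusted p = 0.0293 by edgeR, with 40.2% of miRNAs below 0.05). At 28-d it was -0.58, just short of the 1.5-fold threshold, with 604, 837 and 889 RPM against 1062, 1189 and 1237. Low dose rats and controls of both strands did not overlap at 7-d, 14-d or 28-d, nor did those of 53.2%, 50.2% and 23.3% of all tested miRNAs. Lower values were not confined to low dose. At 14-d, miR-23a-3p was -0.41 at high dose (SE 0.13 and adjusted p = 0.138 by edgeR), without overlap (24.6% of miRNAs). At middle and high dose, miR-27a-3p lay between -0.29 and -0.22 at 14-d and 28-d, without overlap (24.6% to 48.5% of miRNAs). At 7-d both strands lay between -0.02 and 0.10 at these doses.

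The mean effect at low dose was -0.35 for miR-23a-3p (SE 0.099 and adjusted p = 0.00318 by edgeR) and -0.31 for miR-27a-3p (SE 0.1 and adjusted p = 0.00879 by edgeR), where 21.3% of tested miRNAs were called lower and 28.6% higher. At middle and high dose their means were between -0.07 and 0.05, and none passed the test. These means include 3-d values of 0.21 to 0.67 at those doses, against controls that hold control 3-d replicate 1. Over all 12 conditions the means of -0.09 and -0.13 did not pass either (adjusted p = 0.378 and 0.197 by edgeR). Without control 3-d replicate 1 both did, at -0.16 (adjusted p = 0.0274 by edgeR) and -0.21 (adjusted p = 0.00122 by edgeR).

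The difference between doses was itself tested, as high minus low dose within the same fit, in which the shared controls cancel. Over the 4 time points it was 0.40 for miR-23a-3p (SE 0.099 and adjusted p = 0.00247 by edgeR), 0.31 for miR-27a-3p (SE 0.1 and adjusted p = 0.0172 by edgeR) and 0.26 for miR-23b-3p (SE 0.088 and adjusted p = 0.0199 by edgeR), where 19.6% of tested miRNAs were called higher and 15.6% lower. All 3 strands were thus higher at high than at low dose on average over the time points, but not at each of them. By time point the difference lay between -0.04 (14-d) and 0.71 (3-d) for miR-23a-3p, between -0.05 (7-d) and 0.56 (28-d) for miR-23b-3p and between 0.12 (14-d) and 0.45 (3-d) for miR-27a-3p, and of these 12 values only that of miR-23a-3p at 3-d passed the test. At 3-d miR-23a-3p differed by 0.71 (SE 0.2 and adjusted p = 0.0151 by edgeR, 8.97% of miRNAs called higher), with 468, 548 and 567 RPM at high dose against 300, 332 and 334 at low dose. No rat of these groups overlapped, and the share of all tested miRNAs without overlap between them was not computed. For miR-27b-3p the difference over the time points was -0.03 (SE 0.098 and adjusted p = 0.838 by edgeR) and for miR-24-3p -0.07 (SE 0.12 and adjusted p = 0.681 by edgeR). Effects at 28-d minus those at 7-d were called for 0 of 36 tests of members in edgeR (0% of all tested miRNAs at low dose, at middle dose and over the doses, and 0.332% at high dose), with 2 at an unadjusted p-value below 0.05, both at middle dose (miR-24-3p, 0.77, and miR-24-1-5p, 0.88).

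The most abundant strand, miR-27b-3p, was never a DEM. Its log2 fold changes lay between -0.29 and 0.55, none with an unadjusted p-value below 0.05, and the median size of its changes, 0.18, was larger than that of only 9.30% of tested miRNAs. The largest value, at low dose for 3-d, compared 27889, 28702 and 31958 RPM with controls of 9449, 24489 and 26495, and became 0.21 without control 3-d replicate 1. At 3-d the median log2 fold change over all tested miRNAs was itself 0.16 at low, 0.21 at middle and 0.28 at high dose with this scaling, but at most 0.07 in size with TMM normalization, so values at 3-d are read against that shift. Low dose rats at 28-d had 19563, 19983 and 19995 RPM, below the controls at 22125, 24151 and 26466, with a log2 fold change of -0.29 (SE 0.14 and adjusted p = 0.383 by edgeR). The mean effect over all conditions was 0.09 (SE 0.08 and adjusted p = 0.38 by edgeR).

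The product of both clusters, miR-24-3p, had log2 fold changes above 0 in 9 of 12 conditions. With this scaling, the median over all tested miRNAs was also above 0, except at middle dose 7-d, high dose 14-d and low dose 28-d. At 28-d, high dose rats had 664, 878 and 897 RPM against 395, 559 and 636 in the controls, without overlap (33.9% of miRNAs). This was the only DEM of miR-24-3p, with a log2 fold change of 0.62 (SE 0.21 and adjusted p = 0.0995 by edgeR), where 15.3% of miRNAs were DEMs. It was lost without control replicate 18, or without high dose replicate 20 or 21 (0.45, 0.56 and 0.54), and with TMM normalization (0.57) or DESeq2 size factors (0.53). All values at 28-d are set against controls with a mean of 530 RPM, the lowest of the control groups. The other control groups had means of 611, 705 and 720 RPM. At 14-d, low dose rats had 866, 990 and 1019 RPM against 631, 682 and 847 in the controls, which gave 0.41 (SE 0.15 and adjusted p = 0.051 by edgeR). Middle dose at 28-d gave 0.49 (SE 0.20 and adjusted p = 0.084 by edgeR), without overlap (48.5% of miRNAs). The opposite was seen with middle dose at 7-d, with 571, 573 and 600 RPM against 620, 710 and 785 in the controls. That gave -0.28 (SE 0.10 and adjusted p = 0.0709 by edgeR), again without overlap (46.2% of miRNAs). The mean effect at low dose was 0.31 (adjusted p = 0.0293 by edgeR, 28.6% of miRNAs called higher), a call lost with library size or without a filter. At middle and high dose the means of 0.18 and 0.24 were not called (adjusted p = 0.258 and 0.121 by edgeR). The mean over all conditions was 0.24 (SE 0.1 and adjusted p = 0.0476 by edgeR), but 0.17 (adjusted p = 0.112 by edgeR) without control 3-d replicate 1, and it lost its call in 30 of the 48 cases in which a library was left out. It was also lost with TMM normalization (0.20, adjusted p = 0.0698 by edgeR), so this rise is not firm.

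Passenger strands gave 2 DEMs in 48 tests (4.17%), below the 18.1% over all tested miRNAs. At 7-d, middle dose rats had 2.43, 2.92 and 3.52 RPM of miR-24-1-5p against 4.22, 4.52 and 6.01 in the controls, a log2 fold change of -0.73 (SE 0.23 and adjusted p = 0.0443 by edgeR) on 25 to 65 reads, where 3.99% of miRNAs were lower DEMs. Without control 7-d replicate 5 it was -0.56 and was not called. At 28-d, high dose rats had 1.80, 2.89 and 2.99 RPM of miR-27a-5p against 0.940, 1.04 and 1.23 in the controls, which gave 1.25 (SE 0.36 and adjusted p = 0.0774 by edgeR) on 7 to 38 reads. Against all 12 controls pooled it was 0.18. The abundant passenger miR-24-2-5p had no DEM. Its mean effect at 3-d was 0.44 (SE 0.14 and adjusted p = 0.017 by edgeR), but 0.23 (adjusted p = 0.302 by edgeR) without control 3-d replicate 1. Of all tested miRNAs, 17.6% were called higher at 3-d. High minus low dose was 0.59 at 28-d (SE 0.16 and adjusted p = 0.0396 by edgeR, 2.66% of miRNAs called higher) and 0.22 over the 4 time points (SE 0.082 and adjusted p = 0.0384 by edgeR), from 127, 135 and 146 RPM at high dose against 85.6, 88.1 and 96.5 at low dose at 28-d. The 28-d call was lost with TMM normalization (0.38) and without any 1 of these 6 rats.

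Ratios between 2 strands within a library need no normalization across libraries, and 6 were tested between the 36 treated and the 12 control libraries. Labels were permuted within time points (permutation test, two-sided, 100000 resamples), and p-values were adjusted over the 6. The ratio of miR-27b-3p to miR-23b-3p, strands of the same cluster, had a geometric mean of 14.5 in controls and 19.8 in treated rats, a log2 difference of 0.45 (permutation p = 6e-05, adjusted p = 0.00018). It was between 8.95 (control 3-d replicate 1, the next being 11.1) and 17.5 in the controls and between 10.3 and 29.8 in treated rats. All 12 conditions were above their controls on average, and 7 did not overlap with them. For single miRNAs, 35.5% of all tests did not overlap, and the share over other pairs of miRNAs was not computed. Doses at a time point share their controls, so these conditions are not independent. Without control 3-d replicate 1 the difference was 0.38 (adjusted p = 0.00048 by the permutation test), with 11 conditions above. The ratio of miR-24-3p to miR-23b-3p rose from 0.407 to 0.616, a log2 difference of 0.60 (permutation p = 1e-05, the smallest that the resamples can give, adjusted p = 6e-05). This also held in all 12 conditions on average, and 6 did not overlap. Without control 3-d replicate 1 the difference was 0.56 (adjusted p = 0.0003 by the permutation test), again in all 12. The largest difference of a single condition was with middle dose at 28-d, 0.721 against 0.302 in the controls (1.26 on the log2 scale). That control mean was the lowest of the control groups, the others being 0.420, 0.460 and 0.472. In it, replicates 17 and 18 had 0.280 and 0.220, and replicate 16 had 0.448. The smallest difference was 0.11, with high dose at 14-d.

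In contrast, the ratio of miR-27a-3p to miR-23a-3p, the guide strands of the a cluster, showed no difference that passed the test. It had a mean of 2.27 in controls and 2.22 in treated rats, with a log2 difference of -0.03 (permutation p = 0.608). Its SD over the controls was 0.091 log2 units, the smallest of the 6 ratios, against 0.31 for miR-27b-3p to miR-23b-3p. Across the copies, miR-23b-3p to miR-23a-3p fell by 0.26 on the log2 scale, from 3.75 to 3.13 (permutation p = 0.00406, adjusted p = 0.00812). The ratio of miR-27b-3p to miR-27a-3p rose from 23.99 to 27.8 (0.21, permutation p = 0.016, adjusted p = 0.0192), and miR-24-3p to miR-23a-3p rose from 1.53 to 1.93 (0.33, permutation p = 0.0107, adjusted p = 0.0161). Of the 5 ratios called, only miR-27b-3p to miR-23b-3p kept its call when medians replaced means (0.35, adjusted p = 0.0239 by the permutation test). Apart from miR-27b-3p to miR-23b-3p and miR-24-3p to miR-23b-3p, given above, the 4 remaining ratios kept their side of the threshold without control 3-d replicate 1. Their log2 differences were then between -0.20 (miR-23b-3p to miR-23a-3p) and 0.36 (miR-24-3p to miR-23a-3p). The highest values of miR-27b-3p to miR-27a-3p were at low dose before 28-d, with 3 group means between 33.7 and 37.99.

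**Figure D4:**
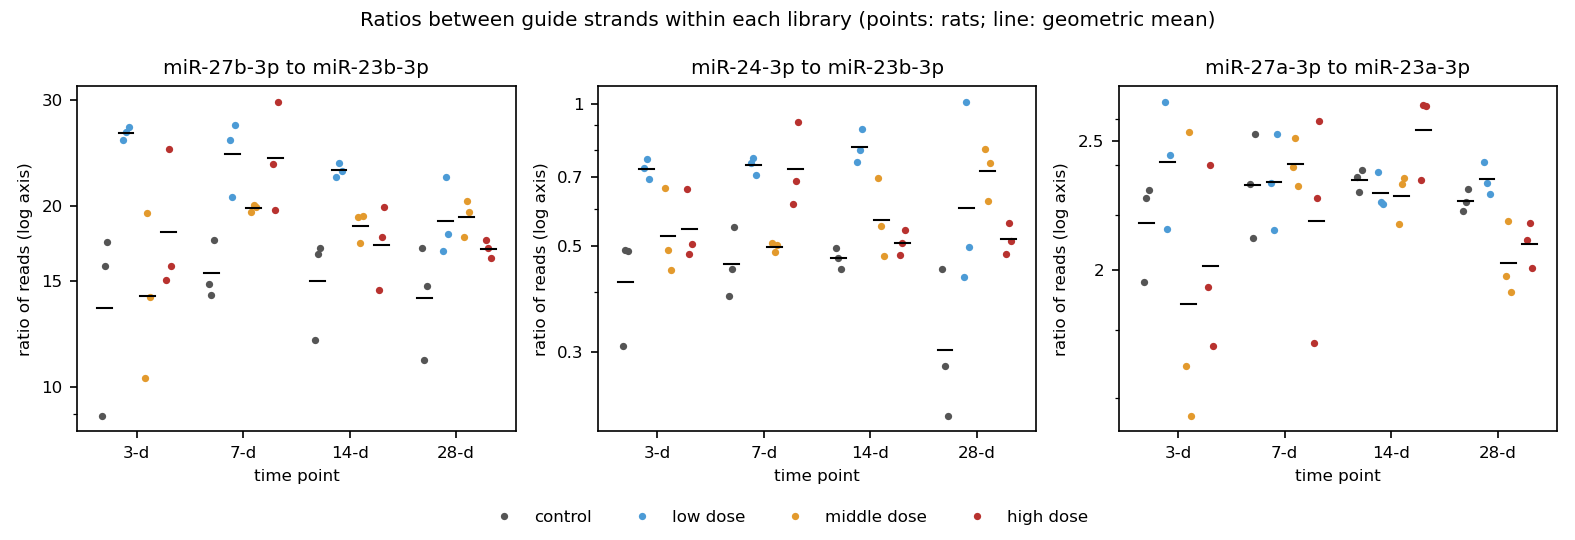
Ratio of reads between guide strands in every rat on a log axis, by time point and dose, with the geometric mean of each group as a line. Treated groups have higher means than their controls for miR-27b-3p to miR-23b-3p and for miR-24-3p to miR-23b-3p, while miR-27a-3p to miR-23a-3p has means of 2.27 in controls and 2.22 in treated rats.

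The pattern over the 16 group means was described by Pearson's r of log2 (RPM + 0.5). Within the clusters, miR-23a-3p and miR-27a-3p were most alike (r = 0.91, and 0.90 without control 3-d replicate 1), miR-23a-3p and miR-23b-3p less so (r = 0.54 and 0.61), and miR-23b-3p and miR-27b-3p had r = 0.07 (0.17 without it). Among other miRNAs, the closest to miR-23a-3p and to miR-27a-3p was miR-374-5p (r = 0.96 and 0.93), and it was still the closest without that library (r = 0.94 and 0.87). Next came miR-350 and miR-142-5p for miR-23a-3p (r = 0.80 and 0.76), and miR-338-3p and miR-142-5p for miR-27a-3p (r = 0.86 and 0.83). Without the library the second place went to miR-342-3p for both (r = 0.93 and 0.85).

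For miR-23b-3p the closest were miR-451-5p, miR-365-3p and miR-145-5p (r = 0.88, 0.87 and 0.85), and without the library miR-30b-5p, miR-451-5p and miR-145-5p (r = 0.89, 0.89 and 0.88). For miR-27b-3p they were miR-28-5p, miR-188-5p and miR-532-5p (r = 0.87, 0.79 and 0.79). None of these was among the 3 closest without the library, when miR-181a-1-3p, miR-181a-5p and miR-181c-5p took their place (r = 0.86, 0.84 and 0.83). For miR-24-3p they were miR-28-5p, miR-187-3p and miR-31a-5p (r = 0.81, 0.81 and 0.76), and without the library let-7b-5p, miR-187-3p and miR-28-5p (r = 0.82, 0.81 and 0.77). The order of likeness for miR-27b-3p thus rests on that library. These values are over groups that share libraries, scaling factors and, for the a and b copies, possibly reads.

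Markers of other cell types are set beside these values, with none of them at 0 reads in any library. In the mean over the conditions, 15.9% of all tested miRNAs were called lower and 25.2% higher, and 18.1% of all tests gave a DEM. Of all tests, 12.1% gave a higher and 5.98% a lower DEM. Ranges of summed levels are over the 11 controls other than control 3-d replicate 1, whose own sum is given apart, and over the 36 treated rats. The endothelial strands miR-126a-3p and miR-126a-5p had mean effects of 0.00 and 0.02 (adjusted p = 0.98 and 0.879 by edgeR), with 0 DEMs in 24 tests and 0 tests called in the mean over the conditions, and -0.08 and -0.07 without that library (adjusted p = 0.256 and 0.281 by edgeR). Their summed level was 19587 to 32448 RPM in controls, 6827 in control 3-d replicate 1 and 17078 to 29332 in treated rats.

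Of 4 red blood cell miRNAs, 3 had a lower mean effect by the test, miR-451-5p (-0.44), miR-144-5p (-0.53) and miR-486 (-1.11). Without control 3-d replicate 1 all 3 were still called lower, at -0.53, -0.56 and -0.47, so the size for miR-486 rested on that library. The summed level was 2954 to 6781 RPM in controls, 81096 in that library and 786 to 9240 in treated rats. These 4 miRNAs gave 1 higher and 20 lower DEMs in 48 tests, with that library among the 3-d controls. Of 6 stellate and smooth muscle miRNAs, only miR-145-5p was called, lower, at -0.52, with sums of 27168 to 48120 RPM in controls, 19452 in control 3-d replicate 1 and 29185 to 57839 in treated rats. Without it miR-145-5p was at -0.46 and miR-145-3p was called as well, at -0.23. The stellate and smooth muscle list gave 6 higher and 8 lower DEMs in 72 tests. Both miR-451-5p and miR-145-5p are among the strands closest to miR-23b-3p, and their part in its fall was not tested.

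Of 4 leukocyte miRNAs, miR-150-5p alone was called, at -0.73 and at -0.56 without control 3-d replicate 1. The summed level was 2687 to 5104 RPM in controls, 2435 in that library and 1845 to 5346 in treated rats. The leukocyte list gave 1 higher and 6 lower DEMs in 48 tests. Of 3 hepatocyte miRNAs, miR-192-5p was called higher (0.21, and 0.14 without the library, when miR-194-5p was also called lower, at -0.16). Their sums were 207337 to 283430 RPM in controls, 102809 in control 3-d replicate 1 and 202176 to 381026 in treated rats. The hepatocyte list gave 2 higher DEMs and 1 lower in 36 tests. Of 5 bile duct miRNAs, miR-200c-3p was called higher (0.39, and 0.41 without the library) and miR-429 lower (-0.54 and -0.65), with sums of 655 to 1406 RPM in controls, 428 in that library and 305 to 1369 in treated rats. The bile duct list gave 5 higher and 8 lower DEMs in 60 tests.

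Of 11 miRNAs linked to fibrosis and TGF-beta signalling, miR-29a-3p (-0.35), which represses collagen genes, and miR-145-5p were called lower and 0 higher. Of all tested miRNAs, 15.9% were called lower and 25.2% higher. The list gave 12 higher and 17 lower DEMs in 132 tests, where 12.1% of all tests gave a higher and 5.98% a lower DEM. Without control 3-d replicate 1 the lower calls were 3, with miR-29c-3p (-0.28) added. The median of this list was 0.00, beside 0.06 over all tested miRNAs, and -0.06 beside 0.07 without that library.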

How the data were processed

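After adaptor removal, the authors retained reads 18 to 25 bases long, counted them with the miRDeep2 pipeline against miRBase release 21, and mapped reads to rn5 to check their origin, with FastQC for read quality. The deposited counts are per mature miRNA and precursor, neither normalized nor filtered, and replicates were not pooled. A mature miRNA with several precursor rows was represented by the row with the most reads.

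Tests covered the 301 of 664 detected mature miRNAs that reached 5 RPM in 3 or more of the 48 libraries, and used the quasi-likelihood F-test of edgeR 4.0.16 under R 4.3.3 (upper quartile normalization, Benjamini-Hochberg adjustment over the 301). Each condition was fitted with its 3 controls (6 libraries), and the 5 RPM level, the normalization and the thresholds of a DEM follow the paper's methods, while the requirement of 3 libraries was set here. Mean effects and differences between doses or times were contrasts of a single fit of 16 groups. Standard errors were the size of the fold change (log2) over the square root of F. Ratios used a pseudocount of 0.5 reads and were tested by permutation. Levels were scaled by factors from all 48 libraries, so a ratio of levels can differ slightly from a fitted fold change. With 3 rats against 3, the smallest p of an exact two-sided permutation test of a single condition is 0.1, so none was used.

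Totals per library (293331 to 14906217) set the precision: 3 counts, taken as the floor, are 10.2 RPM in control 3-d replicate 1 and 0.325 RPM in control 3-d replicate 2, for counting error only. The miRNAs named were the members, the 3 miRNAs most like each guide strand, and lists for fibrosis and TGF-beta, hepatocytes, endothelium, stellate and smooth muscle cells, leukocytes, red blood cells and bile duct. Members and lists were chosen with earlier results of these data known. Alternatives were TMM, DESeq2 1.42.0 size factors or library size for scaling, no filter, the DESeq2 Wald test, pooled controls, a single fit for the conditions, adjusted p-values for calls, other pseudocounts and medians for ratios, and each library left out. DESeq2 size factors for the differences and library size for the control time course, and leaving out control 3-d replicate 1 for the marker lists, the likeness and the ranges of ratios, were added after seeing the data. On simulated data with known changes, the test of low dose at 7-d called 78 of 82 changed and 7 unchanged miRNAs of 301, and the mean over 12 conditions called 82 of 82 and 7. Coordinates were not used, since the sequence table is of another build than rn5. Python 3.11.15 was used for tables.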

Additional observations from a re-analysis of the deposited data

Results flagged for a closer look

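Differences of treatment effect between high and low dose past an edgeR adjusted p of 0.05 were found for 4 members. For miR-23a-3p the difference was 0.71 at 3-d (SE 0.2 and adjusted p = 0.0151 by edgeR) and 0.40 over the 4 time points (SE 0.099 and adjusted p = 0.00247 by edgeR). Over the time points it was 0.31 for miR-27a-3p, 0.26 for miR-23b-3p and 0.22 for miR-24-2-5p, and for miR-24-2-5p it was 0.59 at 28-d.

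Over the time points, the calls of miR-23a-3p, miR-27a-3p and miR-23b-3p held in every one of the 48 cases with a library left out and under TMM, DESeq2 size factors and library size. That of miR-24-2-5p was lost in 11 of the 48 cases, with differences between 0.19 and 0.24 and an adjusted p of up to 0.0829 in edgeR. At single time points the calls were weaker. That of miR-23a-3p at 3-d was lost without high dose 3-d replicate 22 or low dose 3-d replicate 43 or 44 (0.69, 0.66 and 0.74). That of miR-24-2-5p at 28-d was lost with TMM (0.38), DESeq2 size factors (0.40) or library size (0.46) and without any 1 of the 6 rats compared.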

How the results depend on the processing

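The mean effect of miR-23b-3p over all conditions stayed between -0.45 and -0.29 and was called under every alternative and in every one of the 48 cases with a library left out. That of miR-24-3p was lost with TMM (0.20), DESeq2 size factors (0.18), no filter (0.12) and the DESeq2 Wald test (0.17), and lay between 0.17 and 0.31 with a library left out. That of miR-27a-3p gained a call with TMM (-0.17), DESeq2 size factors (-0.19), no filter (-0.24) and the DESeq2 Wald test (-0.20), with -0.21 to -0.077 left out, and that of miR-23a-3p with the DESeq2 Wald test (-0.16), with -0.16 to -0.043 left out. The value of miR-27b-3p became -0.021 without a filter.

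At low dose, miR-24-3p lost its call with library size (0.24) and no filter (0.22), range 0.24 to 0.38 left out, and miR-27b-3p ranged from 0.077 to 0.22. At middle dose, library size gave -0.17 (call lost) for miR-23b-3p, 0.32 (called) for miR-24-3p, 0.072 for miR-27a-3p and 0.11 for miR-27b-3p (-0.11 to 0.036 left out). There miR-23a-3p was -0.019 with DESeq2 size factors, -0.075 without a filter and -0.029 with the DESeq2 Wald test (-0.042 to 0.078 left out). At high dose, miR-23b-3p was called with TMM (-0.29), DESeq2 size factors (-0.32), no filter (-0.37) and the DESeq2 Wald test (-0.32), range -0.26 to -0.18 left out. There miR-23a-3p was -0.013, -0.035, -0.093 and -0.045 in the same order (-0.022 to 0.098 left out), library size gave 0.31 (called) for miR-24-3p (0.17 to 0.31 left out) and 0.059 for miR-27a-3p (-0.092 to 0.045 left out), and miR-27b-3p was -0.011 without a filter. High minus low dose with library size became 0.065 for miR-24-3p and 0.11 for miR-27b-3p (-0.055 to 0.00057 left out). The cause of these changes was not tested.

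With medians, calls were lost for miR-23b-3p to miR-23a-3p (-0.13), miR-27b-3p to miR-27a-3p (0.19), miR-24-3p to miR-23a-3p (0.10) and miR-24-3p to miR-23b-3p (0.47, adjusted p = 0.0629 by the permutation test), and miR-27a-3p to miR-23a-3p was 0.0043. Left out, miR-27b-3p to miR-27a-3p ranged from 0.17 to 0.24, losing its call without control 14-d replicate 13 or control 28-d replicate 17, and miR-24-3p to miR-23a-3p from 0.24 to 0.37, losing it without control 28-d replicate 17 or 18. The 2 higher DEMs of members became 1 with TMM, DESeq2 size factors, no filter or the DESeq2 Wald test, 5 with library size, 4 in the single fit and 0 with pooled controls or adjusted p-values. They ranged from 1 (without control 28-d replicate 18) to 5 (without control 28-d replicate 16). The 5 lower DEMs became 2 with library size or adjusted p-values and 1 with pooled controls, and ranged from 3 (without control 7-d replicate 5 or control 28-d replicate 17) to 6.

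No paired analysis was possible because the replicate numbers run from 1 to 48 and no groups share them. With 3 rats a group and reads that can fall to a or b copies alike, small differences between copies are limited by counting and by assignment.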
